A study of Arabidopsis thaliana with 5 samples.

Results

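Glutathione transferases join the tripeptide glutathione to reactive or toxic compounds, and some carry or reduce small molecules instead. The phi class (GSTF) and the tau class (GSTU) are the large plant classes, known for herbicide tolerance, for conjugation of stress metabolites and for induction by salicylic acid, oxidants and auxin. Some of their promoters are classic targets of TGA transcription factors, the proteins with which plant-specific glutaredoxins act. The genes described here are the rows of the FPKM tables whose name is GSTF or GSTU followed by a number. Of 33557 features 41 matched, and 3 of them (GSTF11, GSTF12 and GSTU20) were left out by the rule. The remaining 38 genes are 11 of the phi class and 27 of the tau class.

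RNA was sequenced from Arabidopsis thaliana roots of plants labelled GFP-GrxS5 (2 libraries), a genotype named for green fluorescent protein joined to the glutaredoxin GrxS5, and of the wild type Col-0 (3 libraries). The study set the genotypes against each other to find genes that GrxS5 represses. Total RNA was extracted from roots and shoots according to the labels' protocol, and all 5 libraries are labelled as root. The labels describe no promoter, line, treatment or plant age, and nothing in them ties the replicates to different plants. The p-values therefore cover the spread among the sequenced libraries, which may be technical. The labels name 2 library kits without assigning them to libraries, so kit and genotype cannot be told apart. GrxS5 itself stood at 103.5 and 124.4 FPKM (fragments per kilobase of transcript, scaled to library size) in GFP-GrxS5 roots, against 3.06, 4.14 and 3.23 FPKM in Col-0 roots. Its change of 4.68 on the log2 scale had an SE of 0.15 (limma, BH-adjusted p = 2.84e-05, where BH stands for the Benjamini-Hochberg adjustment over all genes tested).

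The libraries held an estimated 3280000 to 4370000 fragments, and 1 fragment on a 1 kb transcript was worth 0.229 to 0.305 FPKM. The root marker PYK10, an endoplasmic reticulum body beta-glucosidase, had 4928.2 and 3647.7 FPKM in GFP-GrxS5 roots and 2672.4, 3424.2 and 3457.1 FPKM in Col-0 roots. CASP1, a Casparian strip protein, had 166.0 and 152.1 FPKM in GFP-GrxS5 roots and 122.1, 130.6 and 142.7 FPKM in Col-0 roots. Of 11 root markers 1 was higher, the aquaporin TIP2;3, and 1 lower, the nitrate transporter NRT2.1 (limma), with 3 higher and 2 lower at an unadjusted p under 0.05. Both GFP-GrxS5 libraries lay above all Col-0 libraries for 36.4% of root markers, against 22.6% of all tested genes. They lay below them for 18.2%, against 20.3%. NRT2.1 had 486.5 and 395.8 FPKM in GFP-GrxS5 roots and 649.4, 663.3 and 881.5 FPKM in Col-0 roots. Its call was lost when GFP-GrxS5 replicate 1 (0.0595) or 2 (0.143) or Col-0 replicate 2 (0.0564) was left out, all limma BH-adjusted, in a range of 0.0241 to 0.243. Transcripts of photosynthesis genes used as shoot markers differed between the genotypes: 14 markers summed to 1366.2 to 1390.5 FPKM in GFP-GrxS5 libraries and to 579.1 to 684.6 FPKM in Col-0 libraries. Of 12 tested markers 10 were higher and 0 lower (limma), with 0 lower also at an unadjusted p under 0.05 and a median log2 change of 0.89. For all 12 both GFP-GrxS5 libraries lay above all Col-0 libraries. CAB1 had 515.7 and 545.6 FPKM in GFP-GrxS5 libraries and 191.5, 170.5 and 231.5 FPKM in Col-0 libraries. RBCS1A had 385.9 and 362.0 FPKM in GFP-GrxS5 libraries and 165.3, 147.7 and 167.4 FPKM in Col-0 libraries. RBCS2B, too low to be tested, had 0.942 and 0.813 FPKM in GFP-GrxS5 libraries. It had 0.324 FPKM in Col-0 replicate 3 and was listed at 0 in Col-0 replicates 1 and 2, so no difference can be read from it. In whole roots fewer cells of a type and less RNA per cell cannot be told apart. The tissue that the photosynthesis marker transcripts came from was not tested, nor was their part in the results below. Across 19693 tested genes limma called 932 higher and 462 lower, a split of 66.9% higher that was 54.9% under quantile normalization (789 and 648) and 53.1% after correction for gene length and GC content (727 and 641). At an unadjusted p under 0.05 limma found 2784 of them higher and 2011 lower.

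Root levels of the family ran from genes among the most abundant of the transcriptome to genes at the detection limit. The phi gene GSTF9 was the highest, with 1862 and 1915.4 FPKM in GFP-GrxS5 roots and 1734.5, 1745.3 and 1842.6 FPKM in Col-0 roots. That placed it at rank 16 and 14 of all features in GFP-GrxS5 libraries and at rank 21, 16 and 12 in Col-0 libraries. Next came the tau gene GSTU19, an enzyme with high activity towards xenobiotics, at 736.0 and 772.0 FPKM in GFP-GrxS5 roots and 706.3, 765.3 and 938.8 FPKM in Col-0 roots. GSTF8, whose stress-responsive promoter is a long-used root reporter, had 559.4 and 557.3 FPKM in GFP-GrxS5 roots and 612.8, 564.7 and 634.5 FPKM in Col-0 roots. GSTF14 had 294.6 and 271.5 FPKM in GFP-GrxS5 roots against 277.9, 258.1 and 361.7 FPKM in Col-0 roots. For GSTU19 and GSTF14 the groups overlapped, while both GFP-GrxS5 libraries lay above Col-0 for GSTF9 and below it for GSTF8. None of these passed: the log2 change was -0.08 for GSTU19 (95% interval -0.36 to 0.20; limma, BH-adjusted p = 0.721) and -0.07 for GSTF14 (95% interval -0.39 to 0.26; limma, BH-adjusted p = 0.81). For GSTF8 it was -0.11 (95% interval -0.28 to 0.06; limma, BH-adjusted p = 0.389). GSTF8 shares its locus in the files with AT2G47720, so its reads may include that feature's.

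**Figure D1:**
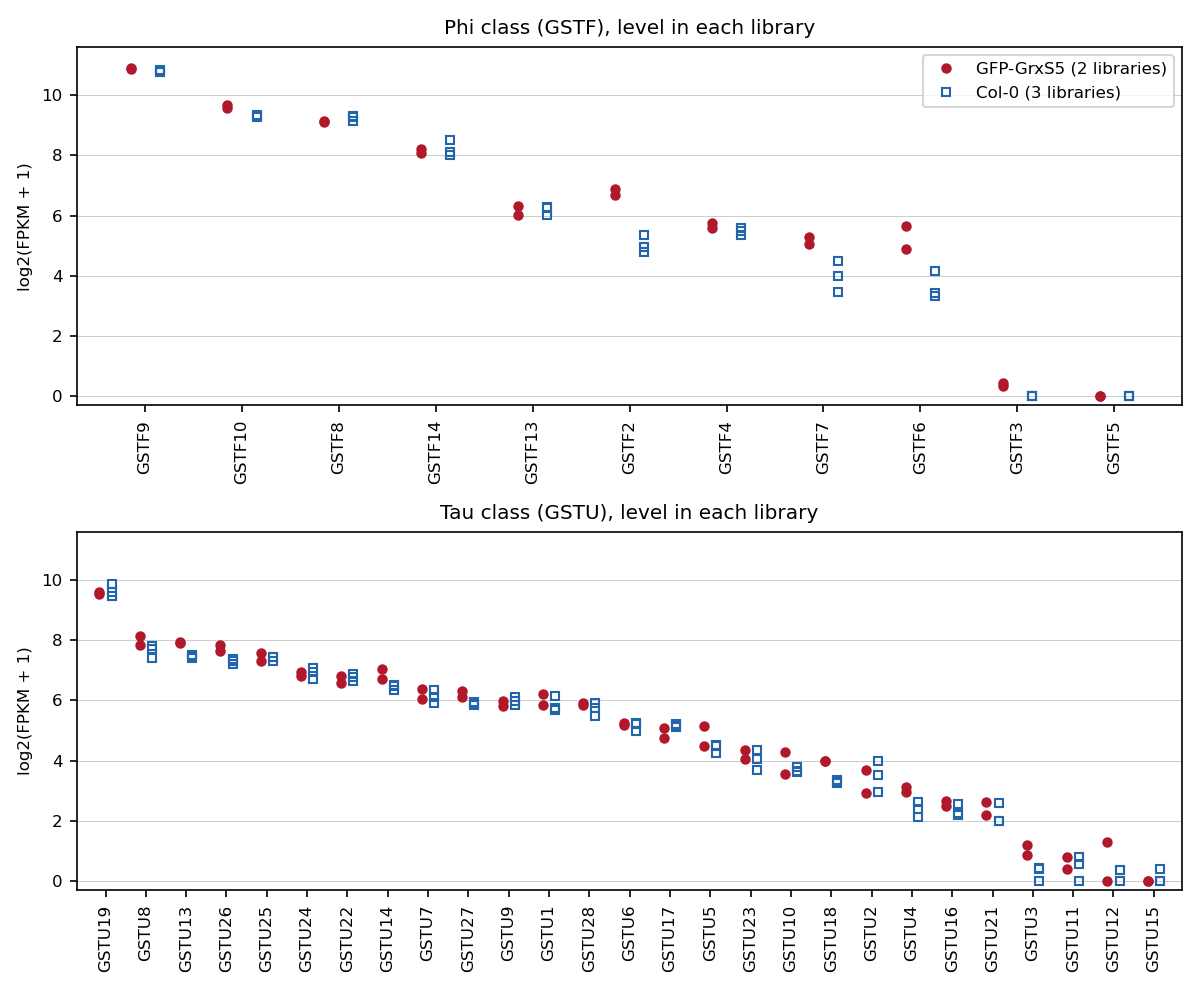
Level of each of the 38 genes as log2(FPKM + 1), with GFP-GrxS5 libraries as filled circles on the left of each name and Col-0 libraries as open squares on the right, ordered by the mean over 5 libraries. The groups lie close together for most genes, with GSTF2, GSTF6 and GSTF7 set apart in the phi panel.

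Summed over the phi genes kept by the rule, transcripts came to 3843.7 and 3807.6 FPKM in GFP-GrxS5 roots and to 3427.8, 3400.7 and 3632.5 FPKM in Col-0 roots. GSTF9 alone made up 48.4% and 50.3% of the phi sum in GFP-GrxS5 libraries and 50.6%, 51.3% and 50.7% in Col-0 libraries. The tau sum, taken in the same way, was 2345.6 and 2598.1 FPKM in GFP-GrxS5 roots and 2100.3, 2242.8 and 2458.4 FPKM in Col-0 roots, so the tau groups overlapped and the phi groups did not. Neither sum was tested. Of all tested genes 22.6% had both GFP-GrxS5 libraries above all Col-0 libraries. The phi and tau genes kept by the rule together held 0.661% and 0.669% of all FPKM in GFP-GrxS5 libraries and 0.586% to 0.651% in Col-0 libraries.

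At the other end 6 genes did not reach the filter of 1 FPKM in at least 2 libraries: GSTF3, GSTF5, GSTU3, GSTU11, GSTU12 and GSTU15. GSTF5 was listed at 0 in all 5 libraries, and GSTU15 had 0.322 FPKM in Col-0 replicate 3 and was listed at 0 elsewhere. GSTF3 had 0.281 and 0.363 FPKM in GFP-GrxS5 roots and 0 FPKM in each Col-0 library, a level of about 1 fragment. GSTU3 had 1.27 and 0.819 FPKM in GFP-GrxS5 roots and 0.309, 0.358 and 0 FPKM in Col-0 roots, at most an estimated 5.8 fragments. At this depth no difference can be read from any of these 6 genes. The other 32 had at least 1 FPKM in all 5 libraries, so none passed the filter through 1 genotype only.

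Of these 32 genes 7 rose and 0 fell in GFP-GrxS5 roots by limma at a BH-adjusted p under 0.05, or 21.9% higher, where 4.73% of all tested genes were called higher and 2.35% lower (7.08% in either direction). At an unadjusted p under 0.05 limma found 11 higher and again 0 lower. Among all 19693 tested genes 2784 were higher and 2011 lower at that threshold. The 7 were GSTF2, GSTF6, GSTF7 and GSTF10 among 9 tested phi genes and GSTU13, GSTU18 and GSTU26 among 23 tested tau genes. On TAIR10, GSTF2 (AT4G02520) lies on chromosome 4 at 1110452 to 1111660 and GSTF10 (AT2G30870) on chromosome 2 at 13141357 to 13142613. The other 5 are on chromosome 1: GSTF7 (AT1G02920) at 658657 to 659771, GSTF6 (AT1G02930) at 661177 to 662456, GSTU18 (AT1G10360) at 3395558 to 3396849, GSTU26 (AT1G17190) at 5875350 to 5876545 and GSTU13 (AT1G27130) at 9425460 to 9426886. The median log2 change was 0.19 for the phi genes and 0.18 for the tau genes, beside 0.01 for all tested genes. These medians moved with single libraries: the phi median was 0.10 and the tau median 0.03 when GFP-GrxS5 replicate 2 was left out, and the tau median was 0.30 when Col-0 replicate 3 was. Without regard to the test, both GFP-GrxS5 libraries lay above all Col-0 libraries for 12 of the 32 genes (37.5%, against 22.6% of all tested genes) and below them for 2 (6.25%, against 20.3%). After correction for gene length and GC content the median was 0.03 for the phi genes and 0.05 for the tau genes, beside -0.02 for all tested genes, and 5 genes were called. The tested members have a median exon length of 1122 bp, against 1760 bp for all tested genes. With GFP-GrxS5 replicate 1 left out the count was 4 and with GFP-GrxS5 replicate 2 left out it was 3. Leaving out Col-0 replicate 1 gave 3, and leaving out Col-0 replicate 2 or 3 gave 4.

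**Figure D2:**
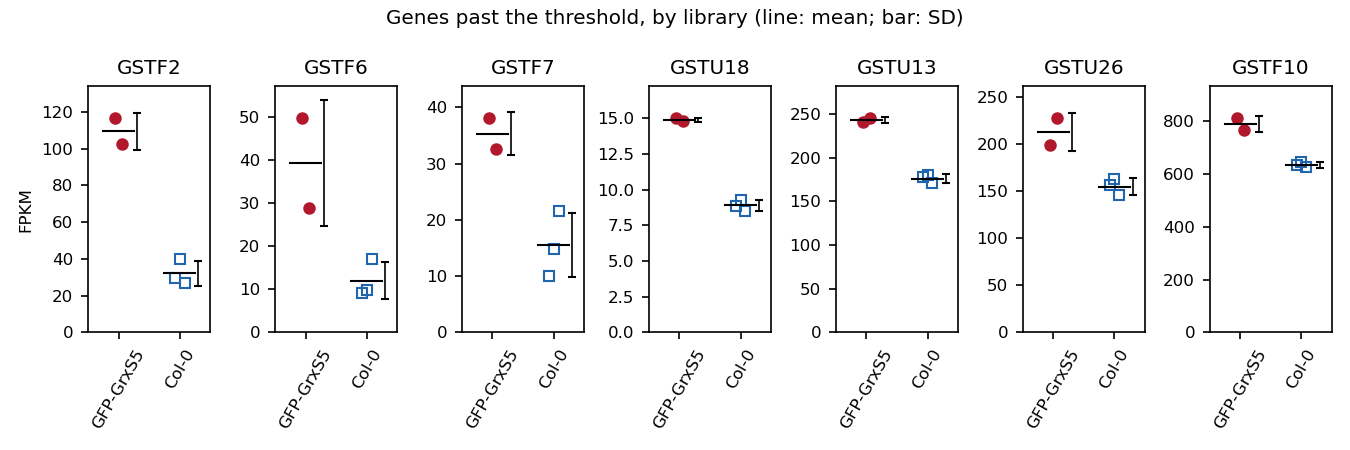
FPKM of the 7 genes past the threshold in each library, GFP-GrxS5 as filled circles on the left and Col-0 as open squares on the right, with the mean as a line, the SD as a bar and an axis from 0 for each gene. In all 7 genes both GFP-GrxS5 libraries lie above the 3 Col-0 libraries, with the widest gap relative to Col-0 in GSTF2.

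The largest rises among the 7 called genes were in 3 phi genes, GSTF2, GSTF6 and GSTF7. Where an uncalled neighbour of a called gene is given with its values, it was chosen after its values were seen, as were GSTF3, GSTU3, GSTU7 and GSTU27. GSTF2, a protein that binds camalexin and flavonoid ligands, had 116.7 and 102.4 FPKM in GFP-GrxS5 roots, against 29.8, 39.9 and 26.8 FPKM in Col-0 roots. The means were 109.6 ± 10.1 FPKM (SD, n = 2) in GFP-GrxS5 and 32.2 ± 6.85 FPKM (SD, n = 3) in Col-0, a 3.41-fold ratio. On the log2(FPKM + 1) scale GSTF2 rose by 1.75 (SE 0.16; limma, BH-adjusted p = 0.00182). Its call held whichever library was left out (limma, BH-adjusted p from 0.00124 to 0.0177) and was lost when no filter on low values was applied (0.0753, the highest of 14 alternatives, also limma BH-adjusted). In rank among all features GSTF2 stood at 1437 and 1711 in GFP-GrxS5 libraries and between 4444 and 6423 in Col-0 libraries. Its coding sequence is 94.5% identical to that of GSTF3, which lies on chromosome 2, so reads could be assigned to either gene.

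GSTF6, which acts in camalexin synthesis, had 49.8 and 29.0 FPKM in GFP-GrxS5 roots, against 9.12, 9.88 and 17.0 FPKM in Col-0 roots. All GFP-GrxS5 values were above Col-0, but the 2 libraries differed widely from each other. GSTF6 rose by 1.64 on the log2 scale (SE 0.30; limma, BH-adjusted p = 0.0206), with means of 39.4 ± 14.7 FPKM (SD, n = 2) in GFP-GrxS5 and 12.0 ± 4.36 FPKM (SD, n = 3) in Col-0, a 3.28-fold ratio. Its call was lost when GFP-GrxS5 replicate 1 (0.101) or Col-0 replicate 1 (0.0594) or 2 (0.0582) was left out, all limma BH-adjusted, in a range of 0.0131 to 0.205 over 14 alternatives. GSTF7, a neighbour known to respond to salicylic acid, had 38.1 and 32.6 FPKM in GFP-GrxS5 roots, against 10.1, 14.9 and 21.5 FPKM in Col-0 roots. It rose by 1.19 (SE 0.27; limma, BH-adjusted p = 0.0412), with means of 35.3 ± 3.87 FPKM (SD, n = 2) in GFP-GrxS5 and 15.5 ± 5.76 FPKM (SD, n = 3) in Col-0, a 2.28-fold ratio. The GSTF7 call was lost when GFP-GrxS5 replicate 1 (0.162) or 2 (0.114) or Col-0 replicate 2 (0.0962) was left out and after the length and GC correction (0.06), all limma BH-adjusted, in a range of 0.0167 to 0.27. GSTF6 and GSTF7 share 94.7% of their aligned coding bases, the closest pair among these genes, so the split of reads between them is uncertain, while both gave higher values.

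GSTF6 and GSTF7 lie side by side with GSTF5 and GSTF4 on chromosome 1 (658657 to 666452), an array in which 2 of 3 tested genes were called. GSTF4 had 46.9 and 53.1 FPKM in GFP-GrxS5 roots and 44.1, 47.3 and 40.2 FPKM in Col-0 roots, with overlapping groups and a log2 change of 0.19 (95% interval -0.05 to 0.42; limma, BH-adjusted p = 0.308). It shares its locus in the files with AT1G02952, and reads of those 2 features may be mixed.

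Since TGA factors bind the sequence TGACG, the core of the as-1 element, and WRKY factors of the defence response bind around TTGAC, the 250 bases before the RefSeq gene start (TAIR10.1) were read for each gene. Both motifs were searched on both strands (CGTCA and GTCAA on the other), and they overlap where TTGACG occurs. Shown first are GSTF2 and GSTF7, from the 3 genes with the largest rises, then GSTF10, the called gene that holds TGACG, and GSTU7, an uncalled gene with 3 matches to it. Capitals mark TGACG or TTGAC on either strand, and each sequence runs 5′ to 3′ on the gene's strand.
GSTF2, chr4:1112034-1112283, minus strand: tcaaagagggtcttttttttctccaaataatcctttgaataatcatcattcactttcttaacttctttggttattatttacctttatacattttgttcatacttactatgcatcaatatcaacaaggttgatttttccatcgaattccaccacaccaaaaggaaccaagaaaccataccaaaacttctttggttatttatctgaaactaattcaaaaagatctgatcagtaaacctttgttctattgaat
GSTF7, chr1:659981-660230, minus strand: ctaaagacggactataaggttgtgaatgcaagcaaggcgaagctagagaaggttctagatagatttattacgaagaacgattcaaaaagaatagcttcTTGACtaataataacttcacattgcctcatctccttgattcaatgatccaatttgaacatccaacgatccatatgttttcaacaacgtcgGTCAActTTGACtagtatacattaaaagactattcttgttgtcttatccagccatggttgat
GSTF10, chr2:13141040-13141289, plus strand: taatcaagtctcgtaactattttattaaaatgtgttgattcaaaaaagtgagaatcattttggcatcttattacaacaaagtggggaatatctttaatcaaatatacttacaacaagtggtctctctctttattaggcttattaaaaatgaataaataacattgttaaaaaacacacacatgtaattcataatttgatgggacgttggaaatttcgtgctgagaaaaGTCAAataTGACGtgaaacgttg
GSTU7, chr2:12618900-12619149, minus strand: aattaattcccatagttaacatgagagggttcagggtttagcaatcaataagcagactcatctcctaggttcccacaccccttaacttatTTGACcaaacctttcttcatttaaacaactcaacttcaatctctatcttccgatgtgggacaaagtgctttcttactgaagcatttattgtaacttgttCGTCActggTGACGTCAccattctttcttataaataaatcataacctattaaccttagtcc

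TGACG was in the window of 14 of the 38 genes (36.8%), against 18.1% of 32813 windows of the annotation. Among the 7 called genes it was in 1, GSTF10, where it starts at position -15 counted from the RefSeq gene start. GSTU7 has it at -61, -52 and -49, where the matches at -52 and -49 overlap on opposite strands. GSTU7, whose locus in the files is shared with AT2G29410, had 65.5 and 82.1 FPKM in GFP-GrxS5 roots and 59.5, 68.0 and 80.3 FPKM in Col-0 roots. The GSTU7 groups overlapped, with a log2 change of 0.09 (95% interval -0.25 to 0.43; limma, BH-adjusted p = 0.743). TTGAC was in the window of 22 of the 38 genes (57.9%), against 44.5% of all windows, and in 4 of the 7 called genes, among them GSTF7, GSTF10 and GSTU26. GSTF7 has it at -152, -62 and -55. GSTF2 holds neither motif in this window and shares no run longer than 11 bases with that of GSTF7. The RefSeq starts of GSTF2, GSTF7 and GSTF10 lie upstream of their starts in the files, at 1111660, 659771 and 13141357. The bases between those starts and the windows were not searched, so an absent motif is absent from the window only. These matches describe letters in a window and show no binding.

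Among the other called genes the rises were smaller. GSTF10, also known as the dehydration-responsive gene ERD13, had 811.3 and 767.0 FPKM in GFP-GrxS5 roots, against 632.5, 646.0 and 624.3 FPKM in Col-0 roots. It rose by 0.31 on the log2 scale (SE 0.06; limma, BH-adjusted p = 0.0303). The GSTF10 call was lost when each of the 5 libraries in turn was left out (limma, BH-adjusted p from 0.0623 to 0.107, within 0.0232 to 0.266 over 14 alternatives). It was also lost after the length and GC correction, at 0.12 by the same test. Its tandem neighbour GSTF9, 77.6% identical in coding sequence, had a log2 change of 0.09 (95% interval -0.07 to 0.25; limma, BH-adjusted p = 0.469).

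In the tau class GSTU13, GSTU18 and GSTU26 rose. GSTU13 is an enzyme of indole glucosinolate metabolism in pathogen defence. GSTU13 had 240.7 and 245.2 FPKM in GFP-GrxS5 roots, against 177.9, 179.6 and 170.5 FPKM in Col-0 roots, a 1.38-fold ratio of means. GSTU13 rose by 0.46 on the log2 scale (SE 0.06; limma, BH-adjusted p = 0.00785). Its call held whichever library was left out (limma, BH-adjusted p from 0.0267 to 0.0436). The call was lost without a variance trend (0.062) and with the replicate block (0.0823), both limma BH-adjusted, in a range of 0.007 to 0.0823. GSTU14, its neighbour with 87.7% identical coding bases, had 102.7 and 131.9 FPKM in GFP-GrxS5 roots and 90.3, 80.9 and 88.9 FPKM in Col-0 roots. Both GFP-GrxS5 values of GSTU14 were above Col-0, with a log2 change of 0.42 (95% interval 0.15 to 0.69) that did not pass (limma, BH-adjusted p = 0.0725). It passed without GFP-GrxS5 replicate 1 (limma, BH-adjusted p = 0.0374, in a range of 0.0374 to 0.295).

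GSTU18 had 15.0 and 14.8 FPKM in GFP-GrxS5 roots, against 8.88, 9.30 and 8.47 FPKM in Col-0 roots, on an estimated 35 to 66 fragments a library. The gap was wider than the spread within either genotype, but at so few fragments that spread is itself imprecise. GSTU18 rose by 0.69 on the log2 scale (SE 0.12; limma, BH-adjusted p = 0.0178). The call was lost when GFP-GrxS5 replicate 1 (0.0876) or 2 (0.0829) or Col-0 replicate 1 (0.0538) or 3 (0.0568) was left out and with the replicate block (0.097), all limma BH-adjusted, in a range of 0.0141 to 0.097. Its neighbour GSTU17, or ERD9, a regulator of drought and light responses, had 26.1 and 33.1 FPKM in GFP-GrxS5 roots and 33.7, 35.7 and 35.9 FPKM in Col-0 roots. Both GFP-GrxS5 values of GSTU17 were below Col-0, with a log2 change of -0.25 (95% interval -0.52 to 0.02; limma, BH-adjusted p = 0.241). That change was -0.08 when GFP-GrxS5 replicate 1 was left out and -0.41 when replicate 2 was. The annotated ends of GSTU17 and GSTU18 overlap in RefSeq, and their coding sequences are 81.6% identical.

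GSTU26 had 199.3 and 227.9 FPKM in GFP-GrxS5 roots, against 156.7, 162.9 and 145.8 FPKM in Col-0 roots. It rose by 0.46 on the log2 scale (SE 0.09; limma, BH-adjusted p = 0.0234). The call was lost when GFP-GrxS5 replicate 2 (0.102) or Col-0 replicate 1 (0.0631) or 3 (0.0689) was left out and with the replicate block (0.101), all limma BH-adjusted, in a range of 0.0193 to 0.143. GSTU24 and GSTU25, which detoxify the explosive trinitrotoluene and are known as xenobiotic-induced genes, lie beside it. GSTU24 had 110.3 and 123.0 FPKM in GFP-GrxS5 roots and 104.2, 120.5 and 133.3 FPKM in Col-0 roots. GSTU25 had 156.4 and 189.7 FPKM in GFP-GrxS5 roots and 157.2, 173.4 and 172.9 FPKM in Col-0 roots. Both genes overlapped between genotypes, with a log2 change of -0.03 (95% interval -0.29 to 0.23) for GSTU24 and 0.04 (95% interval -0.19 to 0.27) for GSTU25. Neither passed (limma, BH-adjusted p = 0.908 for GSTU24 and 0.845 for GSTU25).

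**Figure D3:**
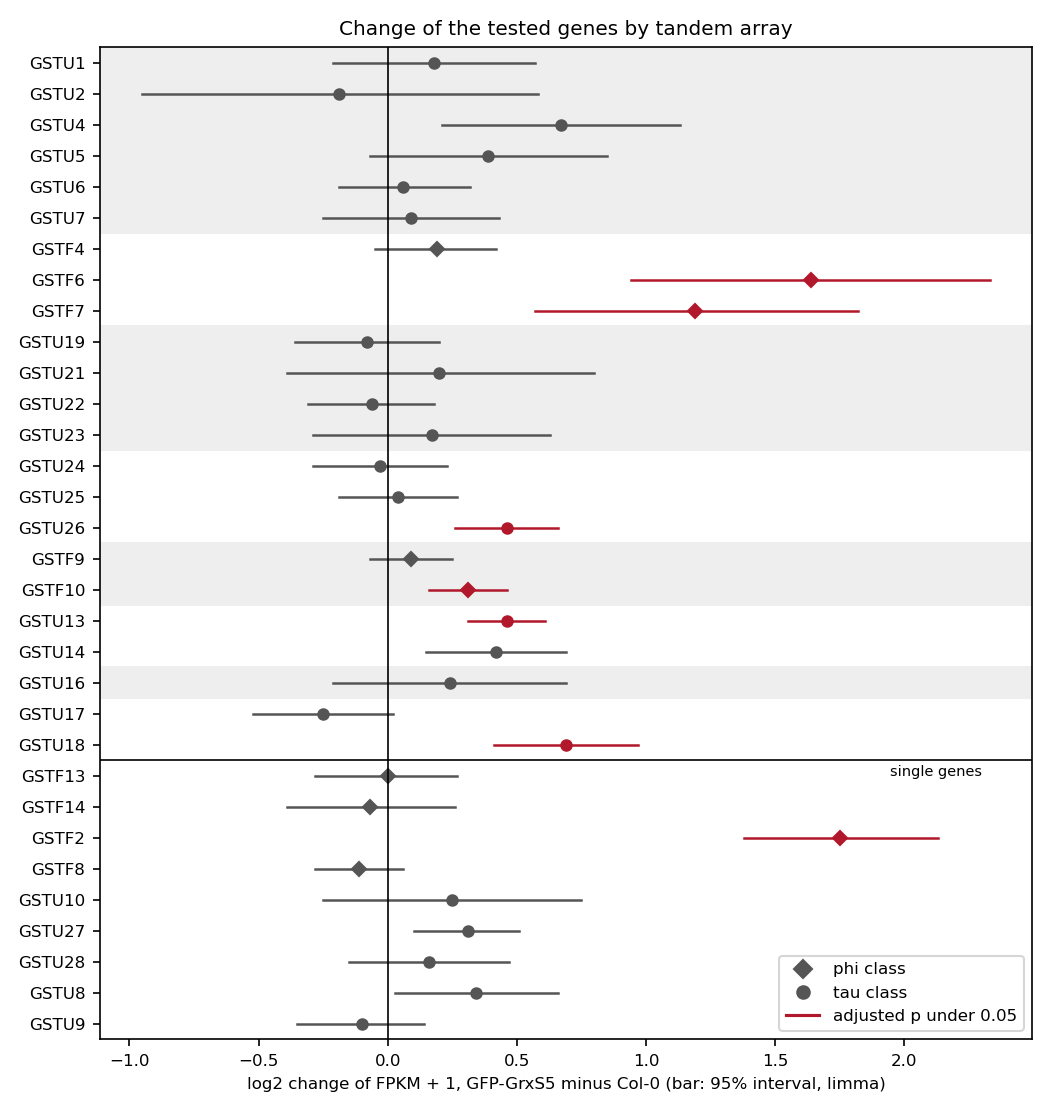
Log2 change of FPKM + 1, GFP-GrxS5 minus Col-0, with its 95% interval from limma, for the 32 tested genes; shaded and unshaded bands separate tandem arrays and genes below the line stand alone. GSTF6 and GSTF7 are called in an array where GSTF4 is not, and no gene of the GSTU1 to GSTU7 array is called.

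By position, 28 of the 38 genes lie in 9 arrays whose members are at most 10000 bp apart, and 10 stand alone. The called genes were 6 in arrays and 1 alone. No called gene lay in the array with the most genes, GSTU1 to GSTU7 on chromosome 2 (12616564 to 12632473), where 6 of 7 genes were tested and log2 changes ran from -0.19 to 0.67. Its highest change was that of GSTU4, with 7.64 and 6.85 FPKM in GFP-GrxS5 roots and 5.16, 3.33 and 4.24 FPKM in Col-0 roots. The GSTU4 groups did not overlap, and the log2 change of 0.67 had a 95% interval of 0.21 to 1.13 (limma, BH-adjusted p = 0.091), on an estimated 15 to 39 fragments a library. Nor was any of the 4 members of the array with GSTU19 called, with log2 changes from -0.08 to 0.20. Outside arrays GSTU8 had 227.8 and 280.4 FPKM in GFP-GrxS5 roots and 170.4, 206.6 and 223.7 FPKM in Col-0 roots. GSTU8 did not overlap but did not pass, at 0.34 (95% interval 0.03 to 0.66; limma, BH-adjusted p = 0.171). GSTU27 likewise did not pass, with 78.2 and 68.8 FPKM in GFP-GrxS5 roots and 56.8, 59.8 and 60.9 FPKM in Col-0 roots. Its log2 change was 0.31 (95% interval 0.10 to 0.51; limma, BH-adjusted p = 0.0795). The tested genes not given with values in each library had means over 5 libraries from 3.95 FPKM (GSTU21) to 105.9 FPKM (GSTU22).

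Other genes of glutathione metabolism were counted beside these classes. Of 12 genes of other glutathione transferase classes 1 rose, 1 fell and 10 did not pass, with a median log2 change of 0.34. At an unadjusted p under 0.05 limma found 8 higher and 1 lower in these classes, and for 9 of the 12 (75%) both GFP-GrxS5 libraries lay above all Col-0 libraries, against 22.6% of all tested genes. GSTL1, of the lambda class whose members reduce glutathione-bound flavonols, had 28.0 and 22.0 FPKM in GFP-GrxS5 roots, against 107.2, 93.6 and 93.1 FPKM in Col-0 roots. It fell by 1.94 on the log2 scale (SE 0.12; limma, BH-adjusted p = 5.01e-04), a change that passed in all 14 alternatives. GSTZ1, which isomerises maleylacetoacetate in tyrosine breakdown, had 156.8 and 165.0 FPKM in GFP-GrxS5 roots, against 125.8, 127.8 and 125.6 FPKM in Col-0 roots. The rise of GSTZ1 by 0.34 (SE 0.06; limma, BH-adjusted p = 0.0237) was lost on leaving out each of the 5 libraries in turn (limma, BH-adjusted p from 0.0663 to 0.102, within 0.0219 to 0.138).

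**Figure D4:**
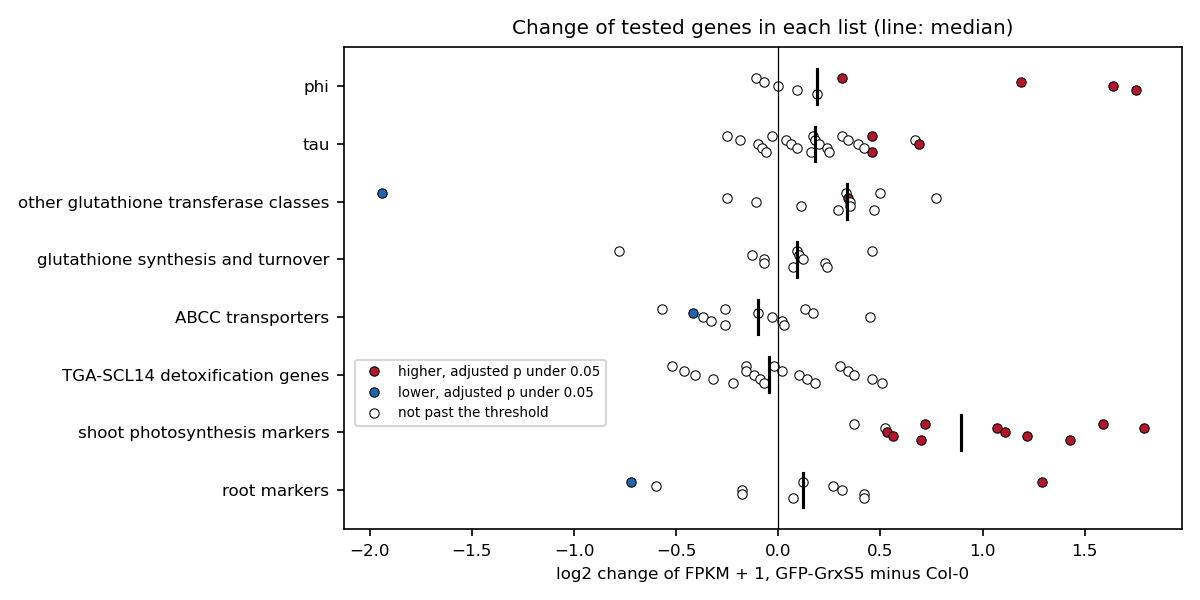
Log2 change of FPKM + 1, GFP-GrxS5 minus Col-0, for each tested gene of the phi and tau classes and of 6 other lists; filled points passed the threshold and the line is the median. Rises at the phi row reach 1.75, the one called gene below zero among the transferases is GSTL1 at -1.94, and the shoot photosynthesis markers lie to the right with a median of 0.89.

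Of 11 tested genes that make, move or break down glutathione 0 passed the adjusted threshold (limma), with 1 higher and 1 lower at an unadjusted p under 0.05 and a median log2 change of 0.09. Both GFP-GrxS5 libraries lay above all Col-0 libraries for 4 of these (36.4%, against 22.6% of all tested genes) and below them for 1 (9.09%). Of 13 tested ABCC transporters, the group that carries glutathione conjugates into the vacuole, 0 rose, 1 fell and 12 did not pass (limma), with a median log2 change of -0.10. At an unadjusted p under 0.05 limma found 1 higher and 4 lower, and both GFP-GrxS5 libraries lay above all Col-0 libraries for 2 (15.4%) and below them for 5 (38.5%, against 20.3% of all tested genes). The one that fell was ABCC5, a carrier of inositol hexakisphosphate, with 33.5 and 31.7 FPKM in GFP-GrxS5 roots, against 44.2, 42.2 and 45.7 FPKM in Col-0 roots (limma, BH-adjusted p = 0.0282). That call was lost on leaving out each of the 5 libraries in turn (limma, BH-adjusted p from 0.0644 to 0.117, within 0.0234 to 0.124). Of 20 tested genes of the TGA and SCL14 detoxification programme, which includes the factors TGA2, TGA5 and TGA6 and xenobiotic-induced genes such as CYP81D11, 0 passed (limma), with 1 higher and 1 lower at an unadjusted p under 0.05 and a median of -0.05. Here both GFP-GrxS5 libraries lay above all Col-0 libraries for 0 genes and below them for 1 (5%). None of these lists was tested as a set, and their adjusted counts stand beside 4.73% higher and 2.35% lower among all tested genes. Their unadjusted counts stand beside 2784 higher and 2011 lower among 19693 tested genes.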

How the data were processed

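FPKM per gene were used as deposited by the authors, in 1 table per library. They were made on TAIR10, per the submitters' processing notes. Neither the aligner nor the counter, nor whether strand was used, was stated by them. The members and the gene lists were chosen with earlier results of these data known. Genes with at least 1 FPKM in at least 2 of 5 libraries were tested on log2(FPKM + 1) with limma 3.58.1 (R 4.3.3, variance trend), Benjamini-Hochberg adjusted over 19693 genes with a threshold of 0.05. Fold changes on that scale understate the change of low genes. Among the phi and tau genes, values in each library are given by rule for called genes, for the 8 genes with the highest mean and for genes whose groups do not overlap with a change of at least 0.5 log2. From the other lists only called genes are named, at most 4 a list by smallest p. From the marker lists at most 3 of the highest mean FPKM are named. TIP2;3 and RBCS2B were named outside this rule, after their values were seen. The camalexin and salicylic acid genes of the closing section were also named outside it. TGA2, TGA5, TGA6 and CYP81D11 are named only to describe their list. Depth was estimated from the value of 1 fragment and limits the precision of low genes. On simulated data of 19693 genes the test recovered 78 of 100 genes changed by 1 log2 and 99 of 100 changed by 2, with 11 false calls among the unchanged genes. The simulated noise was independent and normal at the variances limma had fitted. Changes as small as those of GSTF10, GSTU13, GSTU18 and GSTU26 were not simulated, so the recovery of such changes is not known. Exon lengths, coding identity and the 250 bases before each gene start came from RefSeq (TAIR10.1), matched by gene ID for 32805 of 33557 features. Positions of genes are those of the files. Promoter windows beyond those printed are not reported here. In all 14 alternatives were fitted, covering the pseudocount, the filter, the scaling, a length and GC correction, the variance trend, a replicate block and each library left out, and their effect is given with the limits.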

Additional observations from a re-analysis of the deposited data

How the results depend on the processing

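The direction of each of the 7 called genes was the same in all 14 alternatives, and 0 of the phi and tau genes kept by the rule were called lower in any. The number called higher was 7 with a pseudocount of 0.1 or 0.5, with quantile normalization, with median-of-ratios scaling or with genes kept from 5 FPKM up, 5 after correction for gene length and GC content, 2 with no filter on low values, 2 with no variance trend and 3 with the replicate block. Leaving out 1 library at a time gave 3 to 4. Across all genes the calls were 202 higher and 109 lower with no filter, 398 and 184 with no variance trend, 418 and 176 with the replicate block, and 313 to 594 higher and 192 to 242 lower without 1 library. The median change moved to 0.03 (phi) and 0.05 (tau) after the length and GC correction. Without 1 library the phi median was 0.1 to 0.27 and the tau median 0.03 to 0.3, and with the replicate block they were 0.13 (phi) and 0.3 (tau). The cause was not tested. Only 2 replicate numbers are shared, and same-numbered libraries did not deviate together (correlations of -0.0395 and -0.00804), so the numbers are not shown to pair the libraries. Number 3 occurs only in Col-0, so the replicate block gave the changes found without Col-0 replicate 3 (GSTF2 at 1.64 in both). It left fewer residual degrees of freedom, and those alternatives are not independent of each other. Among the phi and tau genes signs turned only for uncalled ones. After the length and GC correction this held for GSTU25 (-0.1), GSTU7 (-0.06), GSTU6 (-0.05) and GSTF9 (-0.0025), and with the replicate block for GSTU24 (0.06), GSTF14 (0.08), GSTU19 (0.04), GSTU6 (-0.02) and GSTU2 (0.06). Leaving out 1 library at a time gave changes on both sides of 0 for GSTU24 (-0.12 to 0.06), GSTU25 (-0.1 to 0.18), GSTF14 (-0.16 to 0.08), GSTU10 (-0.12 to 0.62), GSTU22 (-0.19 to 0.06), GSTU21 (-0.02 to 0.42), GSTU19 (-0.17 to 0.04), GSTU7 (-0.07 to 0.25), GSTU6 (-0.02 to 0.12), GSTU2 (-0.56 to 0.19), GSTU1 (-0.01 to 0.37) and GSTF13 (-0.15 to 0.14). With 2 GFP-GrxS5 and 3 Col-0 libraries, and the low genes at a few fragments, calls such as that of GSTF10 rest on each library.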

Other observations

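GSTF6 acts in the synthesis of camalexin, the indole phytoalexin, and GSTF7 is a known salicylic acid response gene, so the other genes of both were looked up after these values were seen. Of 6 tested genes of the camalexin list, which includes the transcription factor WRKY33, 0 were called (limma). At an unadjusted p under 0.05 limma found 1 higher and 1 lower, beside 2784 higher and 2011 lower among all 19693 tested genes. The median log2 change of the list was -0.17. CYP71B15, the last enzyme of the pathway, had 5.39 and 5.14 FPKM in GFP-GrxS5 roots and 8.31, 7.87 and 9.51 FPKM in Col-0 roots, a log2 change of -0.61 (limma, Benjamini-Hochberg adjusted p = 0.0557). CYP79B3, the 1 gene higher at the unadjusted threshold, had 103.4 and 103.8 FPKM in GFP-GrxS5 roots. In Col-0 roots it had 80.6, 88.9 and 92.3 FPKM, a log2 change of 0.25 (limma, Benjamini-Hochberg adjusted p = 0.117). CYP71A13 was listed at 0 in all 5 libraries. The salicylic acid markers PR1, PR2 and PR5 were also listed at 0 in all 5 libraries. No difference can be read from them or from CYP71A13. The 2 tested markers, NPR1 and WRKY70, were not called (limma), with 0 at an unadjusted p under 0.05 and log2 changes of -0.07 and 0.14.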
